A study of Drosophila melanogaster with 13 samples.

Results

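RNA was sequenced from heads of adult flies in which *trr* was targeted by RNA interference in neurons, and from heads of their controls. The 4 libraries of this comparison, 2 labelled *trr* knockdown and 2 *trr* controls, are 4 of the 13 samples of the series and 4 of its 10 RNA-seq libraries, and they were chosen by their labels. All 4 libraries came from flies with 1 copy of *Elav-Gal4*, a driver active in neurons, and 1 copy of *dicer2*, which is added to strengthen RNA interference. The knockdown flies also carried 1 copy of the hairpin insertion TRiP.HMS01019 at the attP2 landing site, and the controls carried 1 copy of the CaryP insertion at the same site, which holds no hairpin. The labels give an age of 0 to 5 days for all of them. Each library was made from an aliquot of pooled frozen heads, and the methods describe the replicates as biological. The share of females and males in each pool is not given in the sources used here.

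The gene *trr* (trithorax-related) encodes a histone methyltransferase that places methyl groups on lysine 4 of histone H3, mostly the single methyl group found at enhancers. It works in a COMPASS-like complex with partners such as the H3K27 demethylase Utx, Lpt and Ptip, and it was first known as a coactivator of the ecdysone receptor. A fly head holds neurons and photoreceptors, in which the driver is active, but also glia, fat body, muscle, blood cells, trachea and the epidermis below the cuticle, in which it is not. In RNA from whole heads, fewer cells of a type and less RNA per cell cannot be told apart, and a change confined to some neurons is diluted by all other cells.

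Each library held 26382790 to 28171883 gene counts, so that raw counts can be read side by side, and counts are given below in the order control 1, control 2, knockdown 1, knockdown 2. The 4 libraries did not spread evenly. Among 8222 genes with a mean of at least 100 counts, 680 differed by more than 1.5-fold between the controls, 608 of them higher in control 1 and 72 higher in control 2, whereas 29 differed that much between the knockdown libraries. Control 2 was closer to knockdown 1 (451 genes over 1.5-fold) and to knockdown 2 (329 genes) than to control 1. Among the genes high in control 1 alone were *UQCR-6.4*, a small subunit of respiratory complex III (10593, 1077, 1228 and 1234 counts), *RpL29*, a ribosomal protein gene (34895, 5741, 4040 and 4799), *Prosbeta4*, a proteasome subunit gene (1790, 219, 134 and 113), and *CecA1*, an antibacterial peptide gene (358, 4, 35 and 28). The genes that differed between the controls were short in either direction. Those with a length in the annotation had a median span of 1923 bp where control 1 was higher (588 genes) and 1876 bp where control 2 was higher (68 genes), against 3214.5 bp for all 7840 genes with a length. Because control 1 stands apart, each result below is given with and without it where it matters. What set this library apart was not tested.

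**Figure D1:**
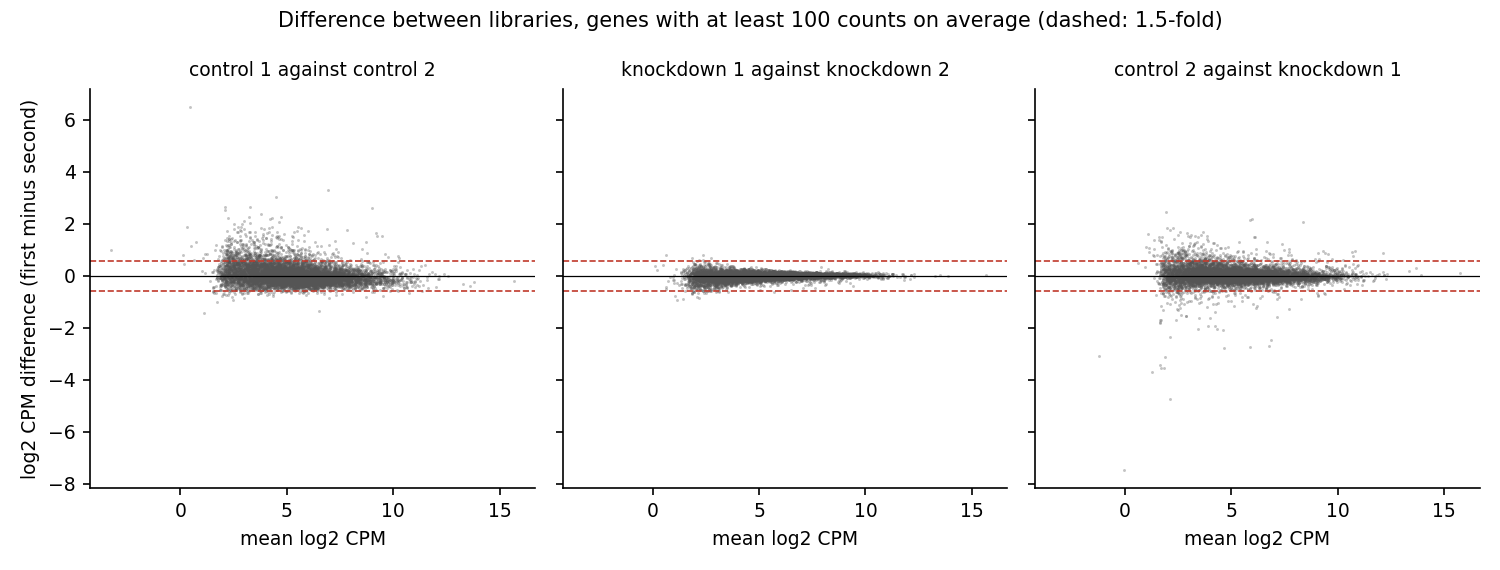
Difference in log2 CPM between pairs of libraries (y axis) against their mean log2 CPM (x axis) for 8222 genes, one point per gene, with dashed lines at 1.5-fold. The controls differ by more than 1.5-fold for 680 genes, mostly upwards in control 1, the knockdown libraries for 29, and control 2 differs from knockdown 1 for 451.

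The genes of the cross were examined first, as a check of the labels. *trr* itself (FBgn0023518, chromosome X) had 1964, 2589, 2651 and 2265 counts, so that the groups overlapped. The fitted difference was 0.12 on the log2 scale, with a 95% interval from -0.25 to 0.48 (SE 0.15, edgeR's adjusted p = 0.679), and it was -0.075 without control 1 (edgeR's adjusted p = 0.478). The libraries are therefore called by their labels, and each direction is relative to these labels. *Dcr-2*, which encodes the dicer that cuts long double-stranded RNA, had 3030, 2297, 1795 and 1723 counts. It stood at 67.2 to 116 CPM (counts per 1000000 counts, scaled over all 10 RNA-seq libraries together) in these 4 libraries and at 7.28 to 11.7 CPM in the 6 libraries of the *G9a* experiment, whose labels name no such transgene. That experiment holds heads of *G9a* mutant flies and of their controls, and ranges over its 6 libraries pool both genotypes. Between the *trr* knockdown and control groups, the log2 fold change of *Dcr-2* was -0.59 (adjusted p = 0.122 with edgeR and 0.0125 with DESeq2). The neuronal gene *elav* had 5466, 5374, 5405 and 5053 counts. The body colour gene *y*, for which the label of the control insertion names a marker, had 77, 37, 20 and 18 counts (log2 fold change -1.57, edgeR's adjusted p = 0.146, and -0.96 without control 1) and the eye colour genes *v* and *w* had 901, 818, 1078 and 958, and 3113, 3915, 3924 and 3633. The methods name markers of *y* and *v* for the hairpin insertion as well, so a *y* marker is not particular to the controls. A lower *trr* level in the whole head was thus not detectable in these counts.

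Of 11416 genes with at least 10 counts over the 4 libraries, 118 (1.03%) were called, with an adjusted p-value under 0.05 in edgeR's quasi-likelihood test and a fold change over 1.5. Of these, 81 (0.71% of the genes tested) were higher and 37 (0.324%) were lower in the libraries labelled *trr* knockdown. The higher genes were mostly of low abundance: 49 of the 81 were more than 4-fold higher, 18 had no more than 3 counts in either control, and 27 had a mean under 100 counts even in the knockdown libraries. The lower genes were abundant and moved less, with 5 of 37 over 4-fold and a median log2 fold change of -1.14. All 118 were over 1.5-fold in the called direction against either control library taken alone. Where groups of a called gene are said below not to overlap, this largely repeats the call and is no further support. The number of calls depended on the libraries. Without control 1, whose removal leaves control 2 as the only control and assumes that it varies like the knockdown libraries, 756 genes were called, 451 of them higher, and without control 2 the number was 2009, 676 of them higher. Without knockdown 1 it was 0 and without knockdown 2 it was 1, where the spread is estimated from the controls alone. At an unadjusted p-value under 0.05 there were 480 and 778 genes in the latter fits. DESeq2's Wald test called 510 genes (4.47%), 189 higher (1.66%) and 321 lower (2.81%), among them all 118. Of its 321 lower genes, 197 were over 1.5-fold lower against control 2, and 320 against control 1.

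**Figure D2:**
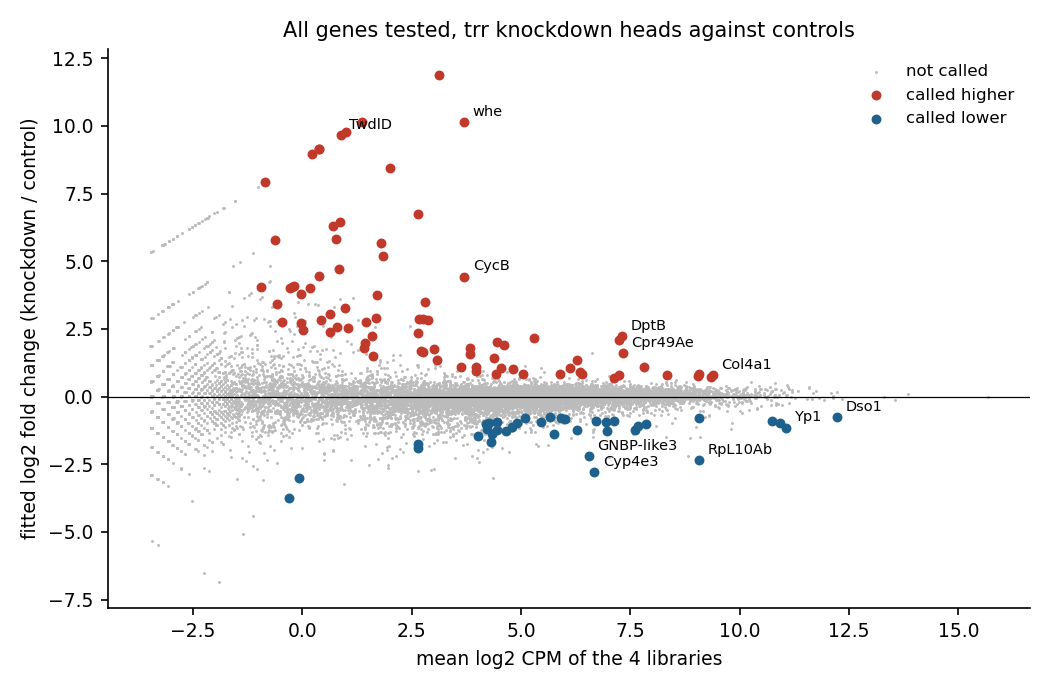
Fitted log2 fold change (y axis) against mean log2 CPM of the 4 libraries (x axis) for the 11416 genes tested, with the 81 genes called higher in red and the 37 called lower in blue. The red points lie mostly at low levels and reach far up, while the blue points lie mostly at higher levels and close to the grey cloud of genes not called.

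The list with the most called genes was that of the cell cycle and mitosis. The head of an adult fly is made almost wholly of cells that no longer divide, and most of its called genes had low counts in the controls. *CycB*, which encodes the cyclin that drives entry into mitosis, had 40, 23, 625 and 727 counts (log2 fold change 4.43 with a standard error of 0.28, edgeR's adjusted p = 0.00793). *stg*, the Cdc25 phosphatase that activates the mitotic kinase, had 53, 35, 308 and 337 counts (2.88, standard error 0.25, adjusted p = 0.0138). In neither gene did the groups overlap. Of the chromosomal passenger complex, which corrects the attachment of chromosomes to the spindle, *Incenp* had 22, 16, 127 and 131 counts (log2 fold change 2.76, adjusted p = 0.0198) and *borr* 13, 7, 100 and 93 (3.26, adjusted p = 0.0241). The kinase of that complex, *aurB*, had 16, 12, 47 and 55 counts and was not called (log2 fold change 1.87, adjusted p = 0.0714). *tum*, which acts in cytokinesis, had 5, 13, 82 and 68 counts (adjusted p = 0.0438), and its kinesin partner *pav* had 8, 2, 60 and 49 (adjusted p = 0.0515), just beyond the threshold.

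Other called members were *CycB3*, a further mitotic cyclin (57, 26, 289 and 313 counts), the spindle genes *mud* (8, 9, 46 and 47), *mei-38* (4, 6, 37 and 32) and *msd1* (3, 2, 36 and 53), the replication helicase subunit *Mcm7* (42, 45, 121 and 123) and the gene of the large subunit of chromatin assembly factor (274, 311, 581 and 546). In each of them both knockdown libraries lay above both controls. Altogether 11 of 63 cell cycle genes tested were called higher and 0 lower, against 0.71% of all genes tested in that direction. The list was written after these genes had been seen among the calls, so that its count is a description. Its median log2 fold change was 0.51 against 0.00078 for all genes, with 44 members above 0 and 19 below. The remaining members were far from uniform. *CycA* had 66, 18, 242 and 272 counts, *polo* 15, 1, 79 and 83 and *fzy* 39, 11, 142 and 153, and none of the 3 was called by edgeR, while the lowest member, *SMC2*, had 141, 66, 63 and 50 (log2 fold change -0.87, adjusted p = 0.290). The growth regulator *E2f1* (3854, 3777, 4021 and 3618) did not separate the groups. DESeq2 called 19 members higher, edgeR 29 without control 1, 27 without control 2 and 0 without either knockdown library. The abundance of the called members in other heads was also low: *CycB* stood at 0.32 to 1.78 CPM in the 6 libraries of the *G9a* experiment, against 23.4 and 28.9 CPM in the knockdown libraries. For all 11 called members, both knockdown libraries lay above the 8 other head libraries of the series, which include the controls of this comparison. This held for 71.6% of the 81 genes called higher and for 14.1% of all genes tested. Called genes were selected by their difference from the controls.

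Genes of the female germ line and of the egg formed the second such group. *nanos*, the translational repressor that patterns the posterior of the embryo, had 2, 3, 41 and 43 counts, a rise of at least 14.1-fold when 3 counts per library are taken as the floor (adjusted p = 0.0249 with edgeR). *BicC*, an RNA-binding protein of the oocyte, had 2, 4, 74 and 61 (log2 fold change 4.44, adjusted p = 0.0183). *yl*, the receptor by which oocytes take up yolk, had 0, 0, 48 and 77 counts (at least 21.1-fold, adjusted p = 0.0365). Both knockdown libraries held these transcripts, and the controls held next to none. *BicC* also varied outside this comparison, from 0.048 to 3.56 CPM in the *G9a* libraries against 2.77 and 2.42 CPM in the knockdown libraries. It was the exception among the 8 called genes of this list, since in the other 7 both knockdown libraries lay above the 8 other head libraries. *swa*, needed to place *bicoid* RNA in the oocyte, had 3, 4, 36 and 62 counts, *cad*, a maternal homeobox gene, 12, 6, 64 and 65, *wisp*, a cytoplasmic poly(A) polymerase of the egg, 59, 52, 271 and 296, and *RpS5b*, a ribosomal protein paralogue used mainly in the ovary, 71, 29, 346 and 355. With *CycB3*, which belongs to both lists, 8 of 32 tested oogenesis and maternal genes were called higher (0.71% of all genes tested were) and 0 lower. This list too was written after its genes had been seen among the calls. Its median log2 fold change was 0.48, with 25 members above 0. It had 13 called higher and 0 lower without control 1, and 14 higher and 2 lower without control 2. The posterior determinant *osk* had 3, 3, 17 and 27 counts (adjusted p = 0.0878), and the lowest member, *del*, had 103, 100, 63 and 69 (log2 fold change -0.61, adjusted p = 0.213). Of the 18 genes called in either list, all kept a log2 fold change of at least 0.86 without control 1.

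Values of the ovary markers stand beside these calls. Over the 12 members matched, which include *yl* and *osk*, the summed counts were 54, 79, 116 and 161. The chorion genes that mark the late egg chamber did not follow *yl*: *Cp18* had 28, 63, 39 and 40 counts and *Cp19* 20, 4, 6 and 9, and *Cp16* was at 0 in all 4 libraries. Markers of testis and accessory gland summed to 4, 18, 14 and 16 counts over 15 genes, with 4 of them at 0 throughout. The yolk protein genes, which are made in the female fat body and secreted, moved the other way. *Yp1* fell from 91332 and 69415 to 36428 and 35635 counts (log2 fold change -1.15, adjusted p = 0.0380) and *Yp3* from 78835 and 60875 to 36417 and 34942 (-0.96, adjusted p = 0.0480), while *Yp2* had 27496, 23674, 20473 and 20154 counts (-0.33, adjusted p = 0.194). The RNAs of the male dosage compensation complex were not called: *lncRNA:roX1* had 58122, 63223, 48766 and 49724 counts and *lncRNA:roX2* 792, 592, 497 and 514. Whether tissue other than head had a part in the mitotic and germ-line genes was not tested.

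**Figure D3:**
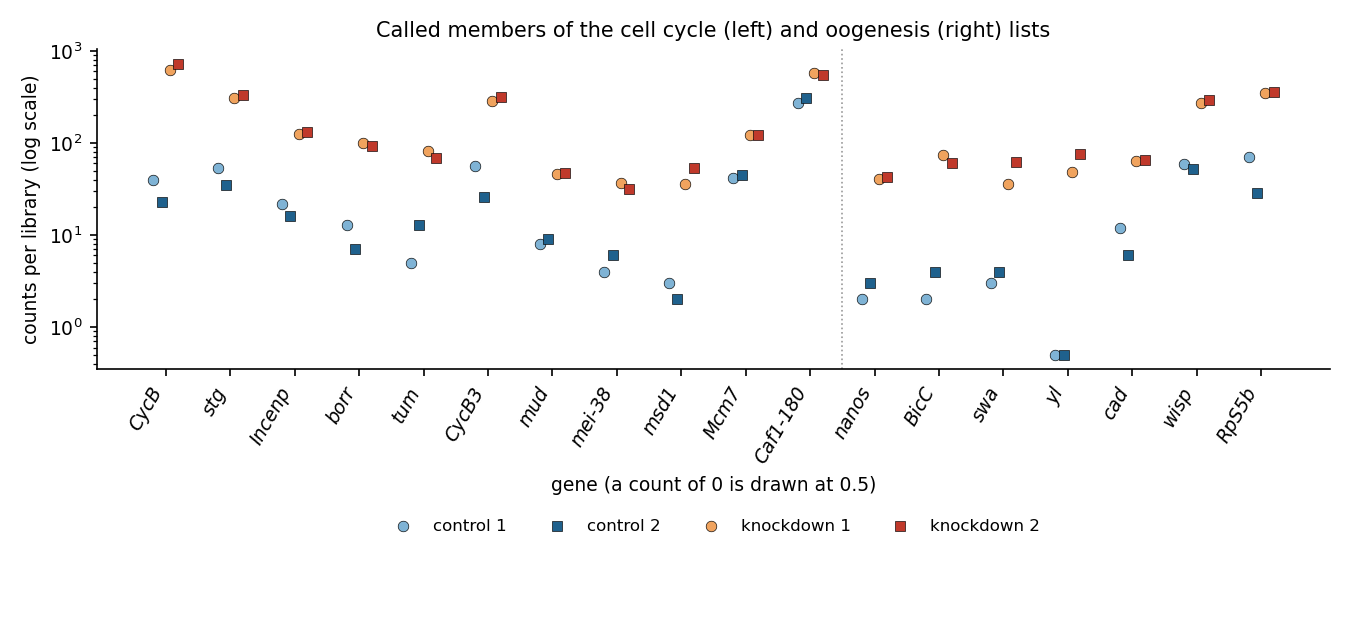
Counts per library on a log scale (y axis) of the 18 genes called in the cell cycle list (left of the dotted line, where *CycB3* is drawn) or the oogenesis list (right), with a count of 0 drawn at 0.5. Orange and red points, the knockdown libraries, lie above both blue points, the controls, in each gene.

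Structural proteins of the cuticle made up a further group. Tweedle proteins are components of the chitin-bearing cuticle that are made mainly when larvae and pupae form a new cuticle. *TwdlD* had 0, 0, 84 and 115 counts (at least 33.5-fold, adjusted p = 0.0213). *TwdlB* had 1, 1, 89 and 107 (at least 32.9-fold, adjusted p = 0.00891), *TwdlL* 2, 0, 72 and 102 (at least 29.3-fold, adjusted p = 0.0244) and *TwdlM* 4, 6, 165 and 211 (log2 fold change 5.21, adjusted p = 0.00891). These 4 genes lie on arm 3R, *TwdlB* next to *TwdlL*, and *TwdlB* was at 0 in all 6 libraries of the *G9a* experiment. Of the 26 Tweedle genes, a list also written after the calls were known, 7 had too few counts to be tested and the 15 not called ranged from *TwdlG* (158, 189, 154 and 151 counts) to *TwdlJ* (0, 1, 8 and 9). Of the 19 tested, 4 were thus called higher (0.71% of all genes tested were) and 0 lower. Some of them, such as *TwdlD* and *TwdlJ*, passed the filter only through the knockdown libraries. The median log2 fold change was 2.30. It was 2.21 without control 1, 1.85 without control 2, 2.56 without knockdown 1 and 1.56 without knockdown 2. Summed over all 26, the counts were 542, 641, 1310 and 1518.

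Among the other cuticle proteins, those with a chitin-binding Rebers and Riddiford domain, *Cpr65Ea* had 0, 1, 203 and 231 counts, at least 72.9-fold higher (adjusted p = 0.00691), and *Cpr49Ae*, which is abundant in heads, had 2122, 2274, 6884 and 6336 (log2 fold change 1.59, standard error 0.087, adjusted p = 0.00691). *Cpr72Ec* (10143, 11392, 18505 and 17982) and *Acp1* (220, 215, 451 and 461) were also called higher, and *Cpr65Au* was called lower (8250, 6890, 3581 and 3533, log2 fold change -1.08). In none of these 5 genes did the groups overlap. *Acp1* stood at 8.24 to 18.3 CPM in these 4 libraries and at 262 to 923 CPM in the *G9a* libraries. Summed over all cuticle protein genes, the knockdown libraries (1667.8 and 1704 CPM) lay within the range of the *G9a* libraries (1622.5 to 2493.6 CPM). Of all 92 cuticle protein genes tested, Tweedle genes included, 8 were called higher (0.71% of all genes tested were) and 1 lower (0.324% were). In this list 69 genes were above 0, with a median of 0.64. Many of them passed the filter only through the knockdown libraries. The number called higher was 12 with DESeq2, 32 without control 1, 35 without control 2 and 0 without either knockdown library.

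Beside *Cpr65Ea*, the largest fitted increases among genes with a mean of at least 100 counts in the knockdown libraries belonged to others with next to no counts in the controls: *CG16826* (0, 0, 545 and 408), *whe* (0, 1, 736 and 673), *nur* (0, 0, 142 and 138), *CG14756* (0, 0, 123 and 95), *CG9184* (4, 2, 359 and 313) and *Dnaaf3*, a gene for assembly of ciliary dynein (7, 0, 192 and 178). These 6 genes fall into different patterns across the series. *CG16826* ranged from 0.23 to 52.1 CPM and *whe* from 0 to 43.2 CPM among the 6 libraries of the *G9a* experiment, so that their level also varied widely among heads outside this comparison, whereas *Dnaaf3* stayed between 0.44 and 1.31 CPM there. In replicate 2 of the *G9a* controls, *CG9184* reached 20.2 CPM, against 13.4 and 12.4 CPM in the knockdown libraries. *CG14756* reached 4.65 CPM in that library (knockdown 4.61 and 3.77 CPM) and *nur* 1.96 CPM (knockdown 5.32 and 5.48 CPM). *CG2962*, with 36, 26, 314 and 382 counts, and *CG10035*, with 24, 17, 187 and 124, were higher as well, as was FBgn0011823, for which no symbol was matched (15, 9, 160 and 168). FBgn0011823 reached 23.7 CPM in replicate 3 of the *G9a* mutants, against 5.99 and 6.67 CPM in the knockdown libraries. Of 12 digestive proteases of the midgut tested, 2 were called higher (0.71% of all genes tested were) and 0 lower. *alphaTry* had 0, 1, 34 and 35 counts (at least 11.6-fold, adjusted p = 0.0322) and *Jon25Biii* 5, 2, 58 and 57 (log2 fold change 4.00, adjusted p = 0.0249). Over all 18 midgut protease genes the summed counts were 17, 32, 290 and 232, with *Jon66Cii* at 0 throughout. With so few counts in the controls, most of the proteases tested passed the filter only through the knockdown libraries. The lack of lower calls and the share called higher are thus no result about this list. Among the *G9a* libraries their sum ranged from 0.55 to 141 CPM, against 10.9 and 9.21 CPM in the knockdown libraries. The part that tissue other than head had in these genes was not tested. Of the 81 genes called higher, 58 (71.6%) had both knockdown libraries above the 8 other head libraries, and of the 37 called lower, 22 (59.5%) had both below. Over all genes tested these shares were 14.1% and 13.1%. The 2 controls are among the 8 libraries, and the called genes were selected by their difference from these controls. The shares of called genes and of all genes are therefore not comparable.

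Immune genes were called in both directions. The Imd pathway answers to peptidoglycan of Gram-negative bacteria and induces diptericins and drosocin. *DptA* had 520, 266, 1874 and 1613 counts (log2 fold change 2.15, adjusted p = 0.0438), *DptB* 1901, 1163, 7660 and 6644 (2.23, adjusted p = 0.0241) and *Dro*, the drosocin gene, 1790, 1360, 7631 and 5744 (2.09, adjusted p = 0.0134). In all 3 the lower knockdown library lay above the higher control. Peptidoglycan recognition proteins that cleave the elicitor rose with them: *PGRP-LB* had 666, 626, 1239 and 1079 counts (0.85, adjusted p = 0.0382) and *PGRP-SC2* 34, 24, 159 and 113 (2.23, adjusted p = 0.0390). *PGRP-SD*, a secreted recognition protein, had 1168, 1139, 2061 and 2070 (0.85, adjusted p = 0.0249). The receptor *PGRP-LC* (2534, 2503, 2660 and 2486) and the adaptor *imd* (648, 626, 773 and 667) differed little, and the transcription factor *Rel* had 1525 counts in control 1 against 764, 779 and 757 in the others. *PGRP-LA* (2017, 769, 606 and 646, log2 fold change -1.145) and *PGRP-LE* (357, 200, 119 and 123, -1.19) were lower, though not called by edgeR. The adjusted p of *PGRP-LE* was 0.126 with edgeR and 0.0143 with DESeq2. Over the list 16 members were above 0 and 8 below. Of 24 tested members of the Imd pathway list, 6 were called higher (0.71% of all genes tested were) and 0 lower (0.324% were), with a median of 0.19. The numbers were 11 and 1 without control 1, 8 and 6 without control 2 and 0 without either knockdown library.

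The Toll pathway, which answers to fungi and Gram-positive bacteria, induces Bomanins and daishos. Its called genes were all lower. *Dso1*, a daisho peptide gene, had 164653, 167674, 94536 and 99611 counts (log2 fold change -0.77, standard error 0.10, adjusted p = 0.0401), the neighbouring *Dso2* 5223, 4449, 1858 and 2159 (-1.26, adjusted p = 0.0254), the Bomanin *BomT2* 3709, 3777, 1970 and 2056 (-0.89, adjusted p = 0.0241) and *GNBP-like3* 4775, 3686, 835 and 1008 (-2.19, adjusted p = 0.0134). In each of them both knockdown libraries lay below both controls. *BomBc2* (34618, 32661, 22544 and 23244, adjusted p = 0.0714) and *BomBc3* (4835, 3227, 1161 and 1687, adjusted p = 0.0759) were not called. The Toll receptor *Tl* (1457, 1263, 1377 and 1367) and its inhibitor *cact* (2910, 3359, 3744 and 3717) showed no such fall, nor did the Bomanins *BomS1* (1613, 1355, 1756 and 1885) and *BomS4* (1464, 1506, 1878 and 1739). Of 32 tested members of the Toll list, 4 were called lower (0.324% of all genes were) and 0 higher, with a median of -0.10. The number called lower was 5 without control 1, 7 without control 2 and 0 without either knockdown library. It was 1 with no filter on low counts, 1 in the glmTreat test against 1.5-fold and 2 with all 10 libraries in 1 fit, where *Dso1*, *Dso2* and *BomT2* were not called. Both pathway lists were written after the calls were known.

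In other immune genes control 1 lay far from control 2. The attacin gene *AttA* had 1612, 335, 723 and 791 counts, *AttB* 1830, 649, 1468 and 1355, and the cecropin gene *CecC* 297, 47, 157 and 166, so that the knockdown libraries lay between the controls. *AttC* had 2026, 628, 4237 and 3903 counts (adjusted p = 0.171), and the antifungal *Mtk* 5339, 2324, 1487 and 1781 (adjusted p = 0.179). Of the 34 antimicrobial peptide, Bomanin and recognition genes, 5 were called higher and 4 lower, and their median log2 fold change of -0.13 turned to 0.26 without control 1, with 13 called higher and 5 lower. Without control 2 it was -0.34, with 7 called higher and 13 lower, and without either knockdown library 0 were called. In the fit of all 4 libraries, 0.71% of all genes tested were called higher and 0.324% lower. The levels of the immune genes also differed between experiments. *Dso1* stood at 889 to 1007 CPM in the *G9a* controls and at 191 to 622 CPM in the *G9a* mutants, against 3540 to 6426 CPM here.

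**Figure D4:**
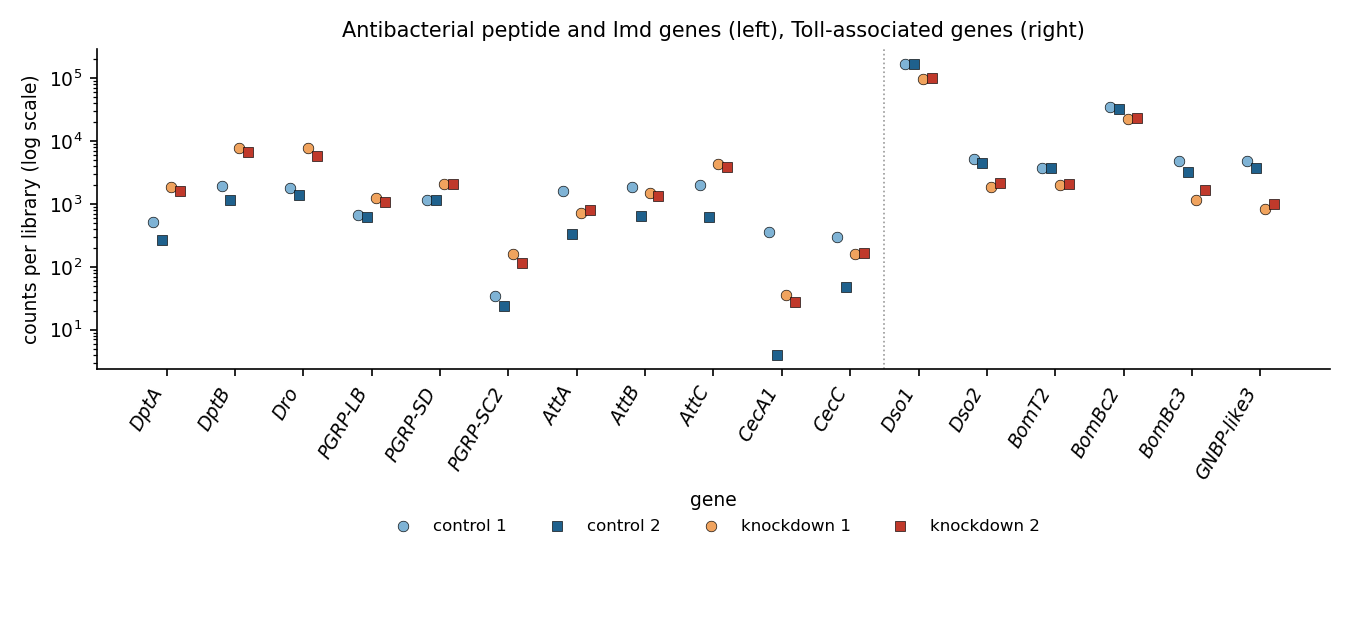
Counts per library on a log scale (y axis) of antibacterial peptide and Imd pathway genes (left of the dotted line) and Toll-associated genes (right). *DptA*, *DptB*, *Dro* and the PGRP genes lie higher in both knockdown libraries (orange and red), *AttA*, *AttB*, *CecA1* and *CecC* lie between the controls (blue), and the 6 genes on the right lie lower in both knockdown libraries.

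Of 15 tested genes of blood cells and of the basement membrane, the sheet of collagen and laminin around tissues, 3 were called higher and 0 lower, against 0.71% of all genes called higher. *Col4a1*, a type IV collagen gene, had 12510, 14362, 24132 and 22431 counts (log2 fold change 0.80, standard error 0.10, adjusted p = 0.0365). Its partner chain *vkg*, with 9269, 11355, 19174 and 16957, missed the threshold narrowly (0.81, adjusted p = 0.0506). The matrix protein gene *Ppn* had 6871, 6198, 11846 and 10518 counts (0.78, adjusted p = 0.0355) and *PPO2*, the prophenoloxidase of crystal cells, 2927, 3132, 5574 and 4928 (0.80, adjusted p = 0.0255). The groups did not overlap in any of these 4. Over the list 14 members were above 0 and the median was 0.44. The exception was the nidogen gene *Ndg* (222, 221, 185 and 178). Markers of plasmatocytes were not called, *Hml* having 1505, 939, 1682 and 1623 counts and *NimC1* 184, 148, 209 and 184. Without control 1 the number called higher was 7 and without control 2 it was 5, but 0 without either knockdown library, or with no filter on low counts, or in the glmTreat test against 1.5-fold.

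Single members of other lists were called. *Arc1*, a capsid-forming gene regulated by neuronal activity and by metabolism, had 1445, 1655, 3068 and 2685 counts (log2 fold change 0.90, adjusted p = 0.0310), while its neighbour *Arc2* had 178, 209, 263 and 236 and the other 10 activity-regulated genes were not called either. Among muscle genes the actin *Act79B* rose (4011, 3755, 9261 and 7323, log2 fold change 1.10, adjusted p = 0.0241) and the troponin C gene *TpnC25D* fell (2829, 3135, 1127 and 1412, -1.22, adjusted p = 0.0365). These were the only calls among 16 muscle genes tested, where 1.03% of all genes tested were called in either direction. Of the muscle genes 13 were above 0, with a median of 0.17. Their summed counts were 128096, 139801, 163255 and 146206, and the myosin heavy chain gene *Mhc* had 35311, 43499, 49086 and 44200. *PCB*, the pyruvate carboxylase that starts gluconeogenesis, had 12475, 14471, 23422 and 20931 (0.72, adjusted p = 0.0480). *Cyp6a2*, a cytochrome P450 of insecticide detoxification, had 1102, 1291, 3094 and 2998 counts (1.36, adjusted p = 0.0131).

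Each of the 12 largest decreases was larger against control 1 than against control 2. *Cyp4e3*, a cytochrome P450, led them with 6410, 3376, 789 and 625 counts (log2 fold change -2.79, and -2.26 without control 1). *RpL10Ab*, a protein of the large ribosomal subunit, had 30691, 18519, 4459 and 5144 counts (-2.35, and -1.94 without control 1). Its level in the *G9a* libraries, 515 to 718 CPM, was like that of control 2 (710 CPM) and above both knockdown libraries (167 and 204 CPM). *RpL23* had 61097, 60451, 33181 and 32024 counts (-0.89, adjusted p = 0.0198), with the controls level with each other. Of 82 cytosolic ribosomal protein genes tested, these 2 were called lower (0.324% of all genes tested were). *RpS5b*, above, was the only one called higher (0.71% of all genes tested were). The list had a median of 0.03.

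Other genes among the decreases had fewer counts. *Dhps*, whose product makes the hypusine residue of the translation factor eIF5A, had 321, 217, 66 and 78 counts (log2 fold change -1.89, adjusted p = 0.0438). *Dtd*, a D-aminoacyl-tRNA deacylase, had 277, 252, 72 and 84 (-1.75, adjusted p = 0.0265), *baf*, which binds DNA to the nuclear lamina, 1005, 642, 263 and 255 (-1.66, adjusted p = 0.0438), and *Grx3*, a glutaredoxin, 765, 535, 232 and 242 (-1.45, adjusted p = 0.0447). In all 4 the knockdown libraries nearly coincided. The secreted lipase-like *sxe2* (8087, 6903, 3029 and 3367), the growth factor *Idgf2* (4727, 4024, 2234 and 2341), the serpin *Spn47C* (759, 632, 350 and 350), the protease-like *CG8329* (17054, 20313, 11243 and 10465) and *CG4842* (2473, 1792, 746 and 864), *CG10936* (815, 784, 334 and 270) and *CG18467* (1051, 880, 424 and 378) were called lower as well. FBgn0011241, with no symbol matched, had 923, 755, 318 and 388 counts.

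Several of the genes named here overlap another gene in the annotation, among them *RpL10Ab*, *Dtd*, *baf*, *RpL23*, *PCB*, *Yp1*, *nanos*, *BicC* and *DptB*. The libraries were not described as stranded, so that reads of overlapping genes can be missed or exchanged. *DptA* and *DptB*, *Dso1* and *Dso2*, and the Tweedle genes are related copies, of which only uniquely mapped reads were counted.

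The genes closest to the function of trr and to the targeted cells did not pass the test. Of all genes tested 1.03% were called, and 30 of the 49 lists had no call. The lack of a call in short lists is thus no result particular to their members. In the COMPASS-like complex 0 of 8 tested members were called, with a median log2 fold change of -0.08. The lowest was *ash2* (797, 649, 626 and 542 counts, -0.30, adjusted p = 0.304, 95% interval from -0.66 to 0.05) and the highest after *trr* was *Rbbp5* (144, 142, 151 and 145, 0.06). *Utx* had 505, 363, 393 and 414 counts, *Lpt* 790, 709, 729 and 700 and *Ptip* 1289, 1109, 1129 and 1055. The direction of *Utx*, *Lpt* and *wds* turned without control 1 and that of *Dpy-30L1* without control 2. Of 21 ecdysone response genes 0 were called and 18 were above 0, with a median of 0.17 that was 0.07 without control 1. The receptor *EcR* had 1942, 2166, 2441 and 2121 counts (0.16, adjusted p = 0.419) and its partner *usp* 2287, 2952, 3209 and 3063 (0.27, adjusted p = 0.322). The early genes *Eip75B* (6665, 6599, 7072 and 6412) and *Eip74EF* (1390, 1621, 1588 and 1506) overlapped between the groups. The largest difference among the well-counted members was the fall of *MsrA*, a methionine sulfoxide reductase, with 4097, 3840, 2643 and 2643 counts (-0.58, edgeR's adjusted p = 0.0546, DESeq2's adjusted p = 0.000425), and the highest member, *ImpE2*, had only 1, 1, 12 and 6.

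Of 13 neuronal genes 0 were called, and their summed counts were 235363, 236307, 246281 and 231611. The range ran from the synaptobrevin gene *nSyb* (37087, 35399, 31774 and 29721, log2 fold change -0.23) to the sodium pump subunit *nrv3* (35812, 33468, 42199 and 41816, 0.29). Of 19 photoreceptor genes 0 were called, from the G protein gene *Galphaq* (-0.38) to the channel gene *trp* (0.32). The rhodopsin gene *ninaE* had 1347792, 1537927, 1466671 and 1361215 counts. Of 11 glial genes 0 were called by edgeR, although *nrv2* (7610, 7164, 4911 and 5482, log2 fold change -0.50, edgeR's adjusted p = 0.106) had an adjusted p of 0.00862 with DESeq2 at a fold under the threshold. The markers of neurons, photoreceptors and glia were all counted in these libraries. Their sum for neurons, 9026 to 9223 CPM, lay within the range of the *G9a* libraries (8004 to 9857 CPM). The sum for glia, 5015 to 6122 CPM, lay above the range there (2257 to 3002 CPM). So did the sum for photoreceptors, 91917 to 106933 CPM, against 62870 to 88736 CPM.

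**Figure D5:**
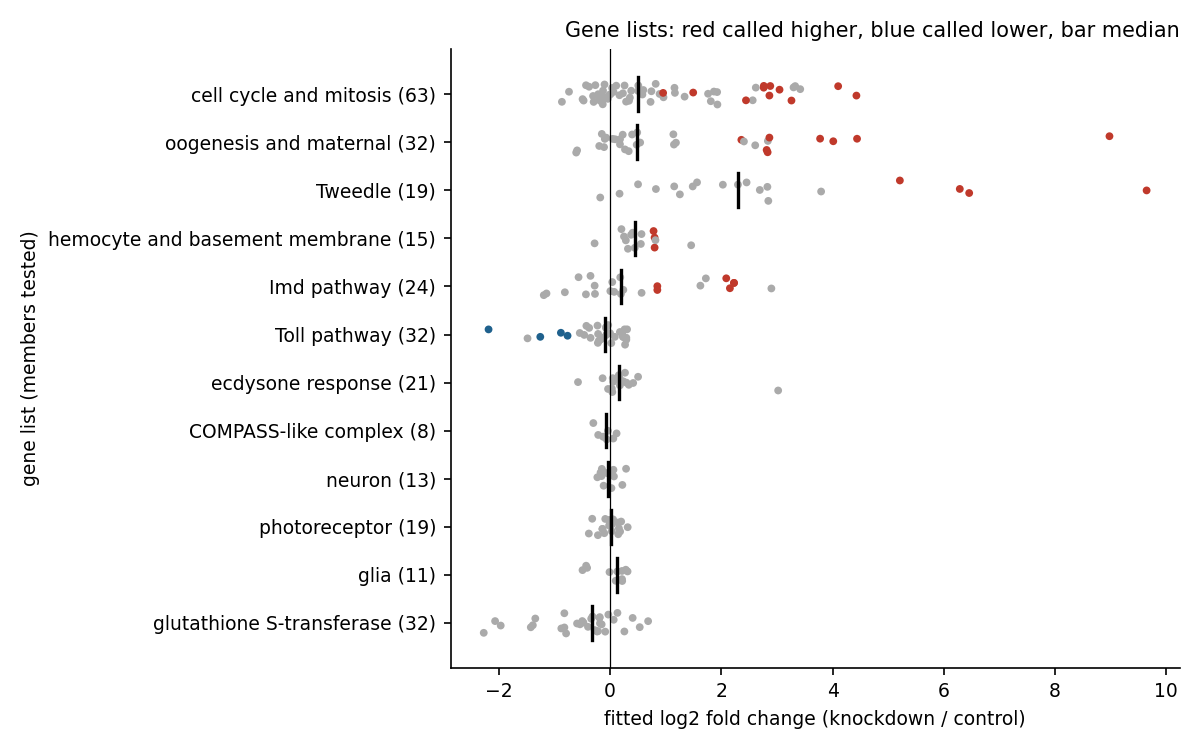
Fitted log2 fold change (x axis) of every tested member of 12 gene lists (y axis, with the number tested), with red points called higher, blue points called lower and a black bar at the median. The cell cycle, oogenesis, Tweedle and Imd lists reach far to the right with 11, 8, 4 and 6 genes called higher, the Toll list has 4 called lower, and the COMPASS-like, neuronal, photoreceptor and glial lists stay close to 0 with no call.

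The called genes were spread over the chromosome arms. Of 1911 genes tested on 2L, 17 were called higher and 6 lower, on 2R 20 and 13 of 2204, on 3L 11 and 8 of 2179, on 3R 16 and 3 of 2691 and on X 12 and 5 of 1824, and 0 of 90 genes on chromosome 4 were called. The share called thus lay between 0.706% (3R) and 1.5% (2R) on the larger arms. The median log2 fold change was 0.06 on X and between -0.022 and -0.013 on the other 4 large arms. Among the called genes 7 pairs were next to each other in the order of protein-coding genes, and in 6 of them both moved the same way. These were *DptA* with *DptB*, *TwdlB* with *TwdlL*, *lcs* with *whe* and *Acp1* with *CG7214*, all higher, and *Dso1* with *Dso2* and *CG42753* with *CG18367*, both lower. The exception was *Cpr72Ec*, called higher, next to *CG4842*, called lower.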

How the data were processed

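The authors extracted RNA from frozen fly heads, primed cDNA with random hexamers, sequenced 36 bp reads and aligned them to dm3 with BWA 0.6.1 (at most 1 mismatch). Reads with a single mapping position were assigned to genes by HTSeq-count. The deposited values are raw counts for 15682 gene identifiers. The 5 summary lines of each file were left out of library sizes and tests. In these 4 libraries they held 9.29% to 10.3% of reads outside genes, 2.41% to 2.55% ambiguous reads and 9.52% to 10.7% reads not aligned. The strand setting of the counting is not given in the sources used here.

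Genes with at least 10 counts over the 4 libraries were tested in R 4.3.3 with the quasi-likelihood test of edgeR 4.0.16 after TMM scaling, without a block, and called where the fold change exceeded 1.5 and the adjusted p-value (Benjamini-Hochberg) was below 0.05. Standard errors are the fold change divided by the square root of the F statistic, and intervals are 95% intervals of that fit. Where a group had at most 3 counts in each library, folds were computed against a floor of 3 counts per library and are lower bounds that cover counting error only. CPM values across experiments come from all 10 RNA-seq libraries scaled together. The test was also run on simulated counts that had the same spread in every library. The controls and the knockdown libraries differ in spread, so this run cannot vouch for the calls made here. Symbols, chromosomes and gene order came from a Release 6 annotation table, which matched 15001 identifiers, and of its coordinates only gene spans and overlaps were used. List genes without a match were not analysed here.

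The genes named are the 12 largest increases and 12 largest decreases among the calls, where the groups did not overlap and the higher group averaged at least 100 counts, the 8 called genes of highest CPM, the called members of lists, the genes of the cross and the COMPASS-like and ecdysone lists. Other genes were picked once their values had been seen. The members and lists were chosen with earlier results of these data known, and the cell cycle, oogenesis, Tweedle, Imd and Toll lists after the values had been seen. Alternatives were RLE scaling, DESeq2 1.42.0, filterByExpr, no filter, the adjusted p-value alone, glmTreat, a replicate block, all 10 libraries in 1 fit, and leaving out each library.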

Additional observations from a re-analysis of the deposited data

How the results depend on the processing

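All 118 genes called kept their direction and a fold over 1.5 in every alternative fitted, and RLE scaling (117 of them called) and filterByExpr (118) changed little. The number called was 118 (81 higher, 37 lower). It became 510 (189 and 321) with DESeq2, 29 (25 and 4) with no filter on low counts, 35 (33 and 2) with glmTreat against 1.5-fold and 337 (111 and 226) with all 10 libraries, where 85 of the 118 were kept. Leaving out 1 library gave 0 to 2009 calls, 0 to 676 higher and 0 to 1333 lower, and kept all 118 only when a control was left out. The cell cycle count of 11 became 19, 3 and 4 with DESeq2, no filter and glmTreat, and 0 to 29 with a library left out. The count of 8 higher cuticle genes became 4 with no filter, and 0 to 35 with a library left out. The 5 higher and 4 lower antimicrobial genes became 1 and 1 with no filter, 2 and 1 with glmTreat and, for the lower ones, 2 with all 10 libraries, and 0 to 13 in both directions with a library left out. The 8 oogenesis genes became 2, 3 and 7 with no filter, glmTreat and all 10 libraries, and the 6 higher Imd genes 1, 2 and 4.

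Same-numbered libraries did not deviate together (correlation of deviations from group means -0.06 over 2 pairs), so the numbers were not taken as pairs. With the replicate number as a block 819 genes were called (320 higher, 499 lower), with 22 cell cycle, 22 cuticle and 8 antimicrobial genes higher.

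With 1 library left out, log2 fold changes that changed sign ranged from -0.075 to 0.33 for *trr*, -0.050 to 0.29 for *w*, -0.14 to 0.013 for *Lpt*, -0.32 to 0.16 for *Utx*, -0.42 to 0.018 for *wds*, -0.066 to 0.16 for *Eip74EF* and -0.094 to 0.26 for *Eip78C*, each turning without control 1, and from -0.17 to 0.098 for *Dpy-30L1*, which turned without control 2. The causes were not tested.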

Other observations

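Glutathione S-transferases, which conjugate toxic compounds to glutathione, were mostly lower in the libraries labelled *trr* knockdown. Of 32 tested, 26 had a log2 fold change below 0, with a median of -0.33, but 0 were called by edgeR and 4 were called lower by DESeq2. Of all 11416 genes tested, 5692 were below 0, edgeR called 0.324% lower and DESeq2 called 2.81% lower. *GstE5* had 290, 84, 45 and 32 counts in control 1, control 2, knockdown 1 and knockdown 2, *GstE3* 1034, 372, 173 and 184 and *GstE13* 419, 238, 122 and 127. In each of the 3 control 1 was the highest library. Without control 1 the median was -0.18 with 6 members called lower, and without control 2 it was -0.50 with 13 called lower and 2 higher.

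Of 70 mitochondrial ribosomal protein genes tested 0 were called by edgeR (1.03% of all genes tested were). DESeq2 called 9 of them lower (2.81% of all genes tested were). Their median log2 fold change of -0.13 was -0.095 without control 1 and -0.10 without control 2. *mRpL34* had 274, 26, 28 and 32 counts, so that control 2 was level with the knockdown libraries, whereas *mRpL54* had 412, 224, 86 and 93 (log2 fold change -1.82, edgeR's adjusted p = 0.0740) and *mRpS16*, in the opposite direction, 852, 970, 1385 and 1302 (0.57, edgeR's adjusted p = 0.0872).

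Of 15 clock genes and clock outputs 0 were called. The lowest was *Clk* (400, 293, 210 and 271 counts, edgeR's adjusted p = 0.290) and the highest *cwo* (3214, 4150, 4869 and 4672, edgeR's adjusted p = 0.211). The neuropeptide gene *Pdf*, made by a small group of clock neurons, had 6264, 6706, 5299 and 4933 counts (log2 fold change -0.34, edgeR's adjusted p = 0.126).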
